A study of Rattus norvegicus with 60 samples.

Results

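The liver genes described here are Slc6a6, Slc34a2, Cdo1, Csad and Baat, 5 of the 14217 genes that the array represents by a probe set with exactly 1 gene symbol. Slc6a6 and Slc34a2 were selected on their change at 120 mg/kg of DMPT against vehicle, −1.83 and −1.79 on the log2 scale, among the largest falls of that contrast. Those values describe the choice and support nothing, so 120 mg/kg of DMPT is given without a test for every gene. All probe sets of Slc6a6 and of Slc34a2 were taken, and for Cdo1, Csad and Baat the brightest probe set by its average on the 60 arrays, which gave 6 probe sets.

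Liver RNA came from male F344/N rats that were between 5 and 6 weeks old when dosing began. DMPT (N,N-dimethyl-p-toluidine, an accelerator in dental and bone cements) was given daily at doses of 1, 6, 20, 60 and 120 mg/kg, with a vehicle group of its own. p-Toluidine, the same ring amine without the methyl groups on its nitrogen, had groups at the same doses and its own vehicle group. All animals, vehicle groups included, received corn oil by gavage at 2.5 ml/kg daily over 5 days, and each of the 12 groups has 5 arrays of the left lateral liver lobe. The arrays are not tied to animals or cages in the labels, so the spread behind each p-value is that between these arrays and may be technical.

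Taurine is an amino sulfonic acid that cells use as an osmolyte and that hepatocytes attach to bile acids. Liver makes it from cysteine: Cdo1 (cysteine dioxygenase) oxidises cysteine to cysteine sulfinate, and Csad (cysteine sulfinic acid decarboxylase) turns that into hypotaurine. Slc6a6 is the sodium- and chloride-dependent transporter that brings taurine into cells, and Baat (bile acid-CoA:amino acid N-acyltransferase) joins taurine or glycine to bile acids. Slc34a2 is no taurine gene. It encodes NaPi-IIb, a sodium-dependent phosphate transporter best known from small intestine and from the alveolar type 2 cells of lung, and also found in the biliary epithelium of rodents.

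The bases just before the annotated starts of the 2 transporter genes are shown because both transcripts fell at the high doses of both chemicals. The sequences are from RefSeq, build GRCr8, each the 250 bases before the start, read 5′ to 3′ on the gene's strand. Capitals mark GCGTG on either strand, the core of the dioxin response element (CACGC where it lies on the other strand).
Slc6a6, chr4:125752252-125752501, plus strand: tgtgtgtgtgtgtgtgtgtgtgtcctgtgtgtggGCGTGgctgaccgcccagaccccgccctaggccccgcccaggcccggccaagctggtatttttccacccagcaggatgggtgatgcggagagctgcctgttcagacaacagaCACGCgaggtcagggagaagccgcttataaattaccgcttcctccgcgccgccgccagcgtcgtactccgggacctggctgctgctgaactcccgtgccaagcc
Slc34a2, chr14:62143073-62143322, minus strand: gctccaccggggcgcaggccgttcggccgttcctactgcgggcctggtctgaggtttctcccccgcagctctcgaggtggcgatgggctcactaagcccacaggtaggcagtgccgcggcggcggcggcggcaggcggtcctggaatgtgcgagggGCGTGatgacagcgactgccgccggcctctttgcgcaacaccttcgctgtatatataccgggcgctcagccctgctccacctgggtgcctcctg

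Slc6a6 held 2 matches to GCGTG and Slc34a2 held 1, while 25.9% of the 33469 promoter windows in the table held at least 1. The antioxidant response element core, TGACNNNGC, occurred 1 time before Slc6a6, where it overlapped a GCGTG match, and was found in 10.1% of windows. The core of the tonicity element, GGAAA, matched 1 time before Slc6a6, 1 time before Csad and 3 times before Baat, against 56.9% of windows with a match. The E-box, CACGTG, was in 5.59% of windows and in none of the 4 windows of Slc6a6, Slc34a2, Csad and Baat. No window was available for Cdo1, which was not searched. Both strands were searched. A match is a description of letters, and this experiment did not measure binding there.

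The tissue label was checked against markers. Hepatocyte markers were bright, with albumin (Alb) at a mean log2 expression of 13.8 in the DMPT vehicle livers and 13.7 in the p-toluidine vehicle livers. The median of an array lay between 3.53 and 3.61 for DMPT and between 2.73 and 2.81 for p-toluidine, and levels are therefore set side by side only within a chemical. The spread of values was narrow on 5 DMPT arrays (6 mg/kg replicate 3, 60 mg/kg replicates 3 and 5, 120 mg/kg replicates 2 and 5) and on 0 p-toluidine arrays. No pair of arrays in a group held identical values. The 3′ minus 5′ signal of the beta-actin controls averaged 1.28 ± 0.08 at 120 mg/kg of DMPT, against 1.48 ± 0.15 in its vehicle group (SD, n = 5 each; two-sided exact permutation p = 0.0159). It averaged 1.52 ± 0.09 at 120 mg/kg of p-toluidine, against 1.80 ± 0.15 in its vehicle group (SD, n = 5 each; exact permutation p = 0.0238). None of 20 tests of RNA quality passed after adjustment (smallest adjusted p = 0.238). The smallest exact p that 5 against 5 arrays allow is 0.00794, so 1 test alone could not pass adjustment over 20. These tests therefore do not show that RNA quality was equal between groups.

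**Figure D1:**
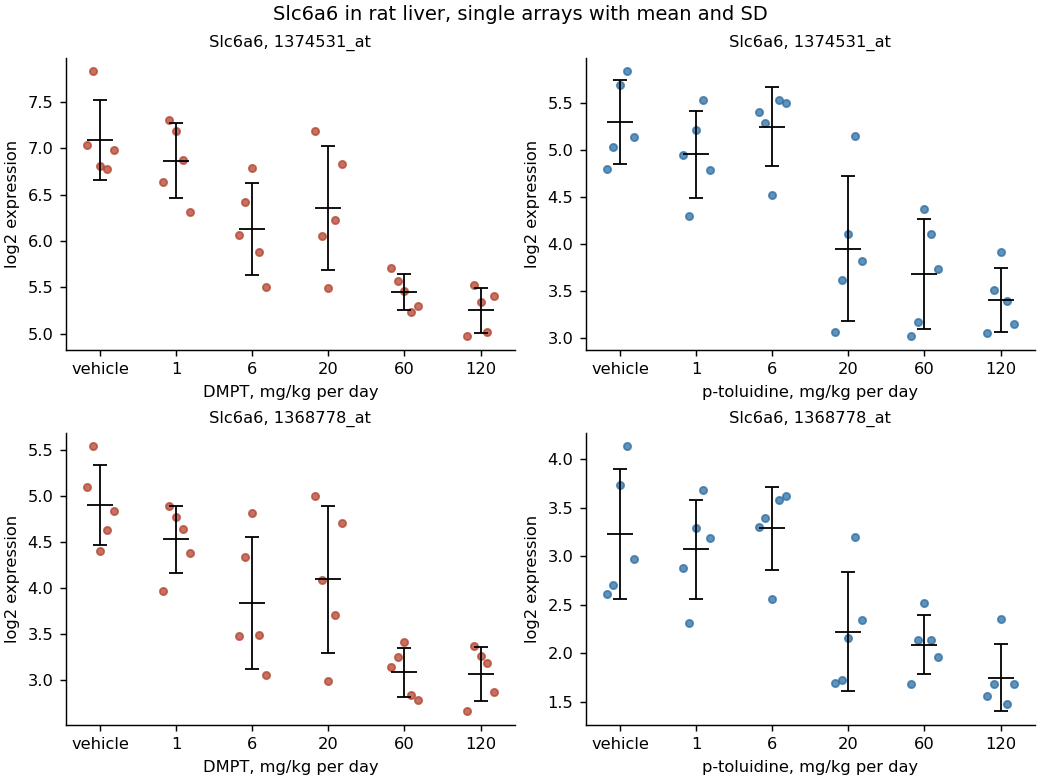
Log2 expression of Slc6a6 on each array (points) by daily dose in mg/kg, for DMPT (left) and p-toluidine (right), with the brighter probe set above and the dimmer below. Horizontal marks are group means and bars are 1 SD of 5 arrays. At 60 and 120 mg/kg of either chemical every array lies below every vehicle array. This held for 3.24% and 4.82% of all probe sets with DMPT and for 2.13% and 3.89% with p-toluidine. Slc6a6 was chosen on its fall at 120 mg/kg of DMPT, so nothing is read from the separation there.

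Slc6a6 transcript in liver fell with both chemicals. At 60 mg/kg it stood at 32.3% of vehicle with DMPT and at 32.6% with p-toluidine, and at 120 mg/kg of p-toluidine at 27.0%. Both probe sets of the gene fell at 60 mg/kg of each chemical. Group means of the brighter one, 1374531_at, from vehicle upward were 7.09, 6.86, 6.13, 6.36, 5.45 and 5.26 over the DMPT doses. They were 5.30, 4.95, 5.25, 3.95, 3.68 and 3.40 over the p-toluidine doses.

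At 60 mg/kg of DMPT the 5 arrays of 1374531_at read 5.70, 5.57, 5.46, 5.23 and 5.30, against 7.04, 7.83, 6.80, 6.78 and 6.98 in the vehicle livers. All 5 treated arrays lay below all 5 vehicle arrays, as was so for 3.24% of all probe sets, and the 60 mg/kg arrays were tight (SD 0.19) beside the vehicle arrays (SD 0.43). The change was −1.63 ± 0.24 (log2, SE of the limma fit, n = 5 each; adjusted p = 7.42e-05), with a 95% interval for the remaining level of 22.9% to 45.6% of vehicle. In bulk tissue, fewer cells of a type and less RNA per cell cannot be told apart.

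The vehicle arrays also entered the contrast with which Slc6a6 was chosen, so 60 mg/kg was set against 1 mg/kg of DMPT as well. The 1 mg/kg arrays read 6.63, 7.31, 7.19, 6.87 and 6.32, all above all 5 arrays at 60 mg/kg, as held for 3.4% of probe sets. The change was −1.41 ± 0.24 (limma adjusted p = 0.000663). Against the same 1 mg/kg arrays, 6 mg/kg gave −0.73 (adjusted p = 0.506) and 20 mg/kg gave −0.51 (adjusted p = 0.441). Of the other doses against vehicle, 1 mg/kg gave −0.22 (adjusted p = 0.977), 6 mg/kg gave −0.95 and 20 mg/kg gave −0.73 (adjusted p = 0.113 for each). At 6 mg/kg, 4 of 5 arrays lay below the lowest vehicle array, and at 20 mg/kg 3 of 5 did, while the other two reached 7.18 and 6.83. The 20 mg/kg change passed with array weights (−0.78, adjusted p = 0.0421) and without 20 mg/kg replicate 1 (−0.93, adjusted p = 0.0308). With 120 mg/kg the arrays read 4.97, 5.52, 5.34, 5.03 and 5.41, which is 28.1% of vehicle. They lay below every vehicle array, as for 4.82% of probe sets. Slc6a6 was chosen on this contrast, so nothing is read from that separation.

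With p-toluidine, the highest dose gave 3.05, 3.51, 3.92, 3.40 and 3.15, against 4.79, 5.03, 5.69, 5.83 and 5.13 in its vehicle livers. No array at 120 mg/kg reached the lowest vehicle array, as was so for 3.89% of probe sets. The change was −1.89 ± 0.29 (limma adjusted p = 3.36e-05). At 60 mg/kg the arrays read 3.02, 3.17, 4.37, 4.11 and 3.73, a change of −1.62 ± 0.29 (adjusted p = 0.000774), and all were below the vehicle arrays, as for 2.13% of probe sets. The 20 mg/kg arrays were the most scattered, at 3.07, 3.61, 4.10, 5.14 and 3.82, with replicate 4 inside the vehicle range. Their change was −1.35 ± 0.29 (adjusted p = 0.0204). That call was lost when vehicle replicate 3 or 4 or 20 mg/kg replicate 1 or 2 was left out (adjusted p between 0.0558 and 0.0771) and when only the 10 arrays compared were fitted (adjusted p = 0.0690). At 1 and 6 mg/kg the changes were −0.34 (adjusted p = 0.917) and −0.05 (adjusted p = 0.984).

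The dimmer probe set, 1368778_at, read 3.14, 3.25, 3.41, 2.84 and 2.78 at 60 mg/kg of DMPT, against 5.10, 5.54, 4.40, 4.64 and 4.84 in the vehicle livers. Again all 5 treated arrays lay below all vehicle arrays, as for 3.24% of probe sets. The change of 1368778_at was −1.82 ± 0.29 (limma adjusted p = 0.00019). Against 1 mg/kg it was −1.45 ± 0.29 (adjusted p = 0.00318). For p-toluidine the changes were −1.01 at 20 mg/kg (adjusted p = 0.0844), −1.14 at 60 mg/kg (adjusted p = 0.0130) and −1.48 at 120 mg/kg (adjusted p = 0.000438). This probe set was below the median of its array on all 5 arrays at 60 and at 120 mg/kg of each chemical. It was so already on 2 of 5 p-toluidine vehicle arrays and on 0 of 5 DMPT vehicle arrays. Its 60 mg/kg p-toluidine call was lost without vehicle replicate 4 (−0.92, adjusted p = 0.0651).

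Array by array the 2 Slc6a6 probe sets moved together. After each array's group mean was taken away, they correlated with Pearson r = 0.89 and a Spearman coefficient of 0.85 over the 30 DMPT arrays (permutation p = 1e-05, the smallest that 100000 permutations can give; adjusted p = 5e-05 over 10 relations). Over the 30 p-toluidine arrays r was 0.88 and the Spearman coefficient 0.86, with the same p and adjusted p. Without the 2 arrays farthest from the median, r was 0.85 in each set. Slc34a2 did not follow Slc6a6 between arrays of a group: r was −0.01 over the DMPT arrays (permutation p = 0.961) and −0.03 over the p-toluidine arrays (permutation p = 0.856). The Spearman coefficients for these were 0.12 and 0.01, and r without the 2 farthest arrays was 0.04 and −0.14. For Cdo1, Csad and Baat r with Slc6a6 lay between −0.24 and 0.23, and each had an adjusted p of at least 0.511.

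**Figure D2:**
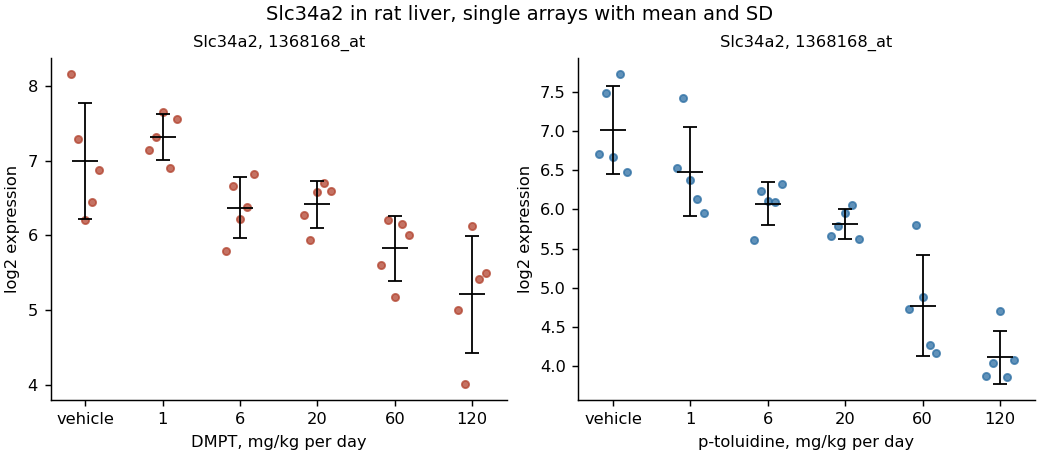
Log2 expression of Slc34a2 (1368168_at) on each array (points) by daily dose in mg/kg of DMPT (left) and p-toluidine (right). Horizontal marks are group means and bars are 1 SD of 5 arrays. The p-toluidine means step down at every dose, to 4.11 at 120 mg/kg against 7.02 in vehicle. Slc34a2 was chosen on its fall at 120 mg/kg of DMPT against vehicle, so nothing is read from the DMPT values there.

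Slc34a2, the phosphate transporter, had the largest change among the tested contrasts of the 5 genes, with p-toluidine. Its transcript was 7.49-fold lower than in vehicle at 120 mg/kg, and it stepped down at each dose on the way. Group means from vehicle upward were 7.02, 6.48, 6.07, 5.82, 4.77 and 4.11 over the p-toluidine doses. Over the DMPT doses they were 7.0, 7.32, 6.37, 6.42, 5.83 and 5.21.

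With p-toluidine at 120 mg/kg the arrays read 3.88, 4.04, 4.70, 3.86 and 4.08, against 6.71, 7.49, 6.67, 7.74 and 6.48 in the vehicle livers. The highest treated array, 4.70, was well below the lowest vehicle array, 6.48. At this dose 3.89% of probe sets had all 5 treated arrays below the vehicle arrays. The change was −2.90 ± 0.26 (limma adjusted p = 2.08e-09), and 13.4% of the vehicle level remained (95% interval 9.23% to 19.3%). At 60 mg/kg the arrays read 4.73, 5.80, 4.88, 4.27 and 4.17, also below every vehicle array, as for 2.13% of probe sets. That change was −2.24 ± 0.26 (adjusted p = 1.37e-06).

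Lower p-toluidine doses already gave arrays below the vehicle range. At 20 mg/kg the values were 5.66, 5.79, 5.95, 6.06 and 5.62, the tightest group of this gene (SD 0.19), and all lay below the vehicle arrays, as for 1.2% of probe sets. The change was −1.20 ± 0.26 (limma adjusted p = 0.0206). It was lost when vehicle replicate 2 or 4 or 20 mg/kg replicate 1 or 2 was left out (adjusted p between 0.050 and 0.0855). At 6 mg/kg the values were 5.61, 6.23, 6.11, 6.10 and 6.32. All 5 were below the lowest vehicle array, as was so for 0.812% of all 31042 probe sets at this dose, and the change of −0.94 ± 0.26 did not pass over all probe sets (adjusted p = 0.265). At 1 mg/kg the change was −0.53 (adjusted p = 0.779).

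With DMPT the 60 mg/kg arrays read 5.60, 6.21, 5.18, 6.15 and 6.00, against 8.17, 7.30, 6.21, 6.45 and 6.88 in the vehicle livers. The vehicle group was wide (SD 0.77), and its lowest array and the highest treated array agree to 2 decimals without overlapping. In this contrast 3.24% of probe sets had all 5 treated arrays below the vehicle arrays. These vehicle arrays also entered the contrast with which Slc34a2 was chosen, so the separation and the p that follows are not free of that choice. The change was −1.17 ± 0.30 (limma adjusted p = 0.0173). It did not pass without vehicle replicate 1 (−0.88, adjusted p = 0.0752), without 60 mg/kg replicate 3 (−1.01, adjusted p = 0.0685) or without the 5 arrays of narrow spread (−1.01, adjusted p = 0.0743). Against 1 mg/kg, whose arrays read 7.14, 7.32, 7.66, 6.90 and 7.56, the change was −1.49 ± 0.30 (adjusted p = 0.00331) and passed without each of the 10 arrays in turn. All arrays at 6 and at 20 mg/kg also lay below the 1 mg/kg arrays, as for 0.751% and 1.78% of probe sets, with changes of −0.94 (adjusted p = 0.506) and −0.90 (adjusted p = 0.193). The 20 mg/kg one passed with only the 10 arrays compared (adjusted p = 0.0173). The 120 mg/kg arrays spread from 4.01 to 6.13, at 28.9% of vehicle on average. At 1, 6 and 20 mg/kg the changes from vehicle were 0.31 (adjusted p = 0.974), −0.63 (adjusted p = 0.566) and −0.58 (adjusted p = 0.377).

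Slc34a2 is known from alveolar type 2 cells in lung and from bile duct cells, so markers of both were summed per array. The surfactant genes Sftpc and Sftpa1 had mean log2 levels of 2.33 and 1.65 in the DMPT vehicle livers and 1.78 and 1.17 in the p-toluidine vehicle livers. Of the 6 alveolar type 2 markers, 5 lay below the array medians in these means (Sftpc, Sftpb, Sftpa1, Sftpd and Lamp3), and Abca3, at 5.93 and 5.40, lay above and makes up most of the sum. The sum of the 6 alveolar type 2 markers was 0.14 higher at 120 mg/kg of p-toluidine (exact permutation p = 0.0317, adjusted p = 0.0781 over 32 marker tests). The sum of 9 cholangiocyte markers (of 12 listed) went the other way from Slc34a2. It ran at 120 mg/kg of p-toluidine from 7.73 to 8.0 on the log2 scale, against 6.95 to 7.21 in vehicle. The difference was 0.78, and the two-sided exact permutation p of 0.00794 is the smallest that 5 against 5 arrays allow (adjusted p = 0.0254). Bright genes weigh most in such a sum, and Anxa4 was the brightest of the 9, at 6.18 in the p-toluidine vehicle livers. The median change of the 9 genes at 120 mg/kg of p-toluidine was 0.15.

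The cholangiocyte sum was also higher by 0.49 at 60 mg/kg of p-toluidine, by 0.40 at 60 mg/kg of DMPT and by 0.63 at 120 mg/kg of DMPT (exact permutation p = 0.00794 and adjusted p = 0.0254 for each). Of its 9 genes, 2 rose in each of these, Epcam and Anxa4. With p-toluidine at 120 mg/kg 3 rose: Epcam by 1.84, Anxa4 by 0.72 and Cldn7 by 0.39. The keratins Krt19 and Krt7, which define bile duct cells, were dim, at 2.90 and 1.98 in the DMPT vehicle livers, and did not pass in any of these 4 contrasts. At 120 mg/kg of p-toluidine these keratins changed by −0.35 and −0.06. The part of the cell makeup in the Slc34a2 result was not tested.

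**Figure D3:**
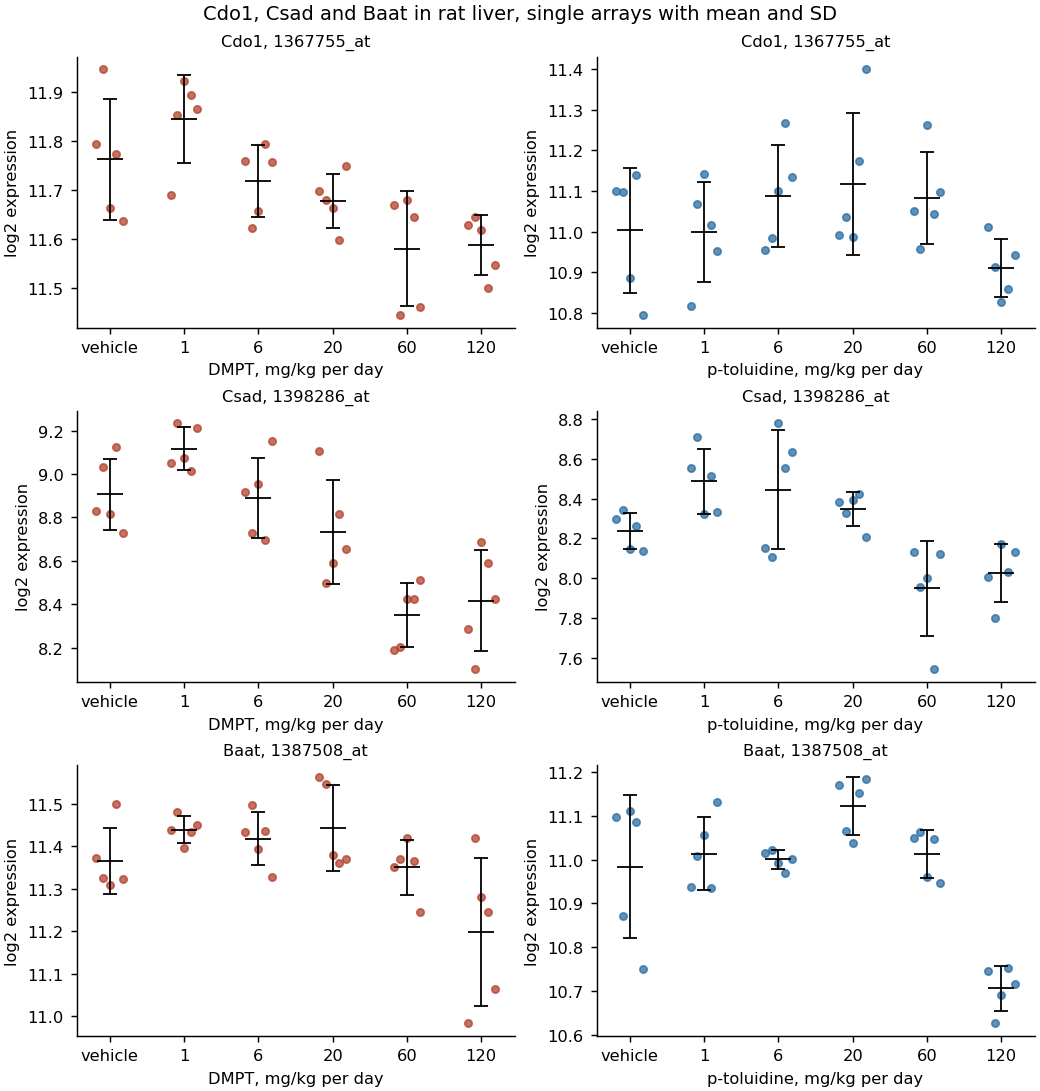
Log2 expression of Cdo1, Csad and Baat (top to bottom) on each array (points) by daily dose in mg/kg of DMPT (left) and p-toluidine (right). Horizontal marks are group means and bars are 1 SD of 5 arrays, and each panel has its own vertical scale. At 60 mg/kg of DMPT all 5 Csad arrays lie below the vehicle arrays, as for 3.24% of all probe sets.

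Cdo1 and Baat were among the brightest probe sets of the array, above 99.6% of all probe sets in each vehicle group. Csad fell at 60 mg/kg of DMPT to 68.0% of vehicle, and Baat fell at 120 mg/kg of p-toluidine to 82.5% of vehicle. Cdo1 kept within 0.27 of its comparison group in each tested contrast. In the main fit its fall passed only at 60 against 1 mg/kg of DMPT.

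For Cdo1, the first step of taurine synthesis, the 60 mg/kg DMPT arrays read 11.67, 11.44, 11.68, 11.65 and 11.46, against 11.79, 11.95, 11.66, 11.77 and 11.64 in vehicle. The groups overlapped, and the change of −0.18 ± 0.07 did not pass (limma adjusted p = 0.115). Quantile normalization within DMPT or over all arrays brought it to −0.23 in each case, past the threshold (adjusted p = 0.0149 and 0.0114). Against 1 mg/kg (11.69, 11.85, 11.92, 11.89 and 11.86) Cdo1 fell by 0.26 (SE 0.07, adjusted p = 0.0165). This did not pass without 1 mg/kg replicate 3 (adjusted p = 0.0515), without 60 mg/kg replicate 5 (adjusted p = 0.0579), without the arrays of narrow spread (adjusted p = 0.0636) or with only the 10 arrays compared (adjusted p = 0.104). With p-toluidine the changes from vehicle lay between −0.09 and 0.11, with adjusted p from 0.594 to 0.996.

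Csad, the next enzyme, read 8.19, 8.20, 8.42, 8.43 and 8.51 at 60 mg/kg of DMPT, against 8.83, 9.03, 8.81, 9.12 and 8.73 in the vehicle livers. All 5 treated arrays lay below all 5 vehicle arrays, as for 3.24% of all probe sets. The change was −0.56 ± 0.11 (limma adjusted p = 0.00217). Against 1 mg/kg, which read 9.05, 9.23, 9.08, 9.01 and 9.21 and held the highest mean of the DMPT groups, it was −0.77 ± 0.11 (adjusted p = 7.33e-05). The 120 mg/kg mean stood at 71.3% of vehicle. The changes at 1, 6 and 20 mg/kg were 0.21 (adjusted p = 0.933), −0.02 (adjusted p = 0.990) and −0.17 (adjusted p = 0.507).

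With p-toluidine, Csad at 60 mg/kg read 8.13, 7.95, 8.0, 7.54 and 8.12, against 8.30, 8.34, 8.15, 8.26 and 8.14 in vehicle. All 5 arrays were below the lowest vehicle array, as was so for 2.13% of probe sets at this dose. The gap to the highest of them was small. The change of −0.29 ± 0.11 did not pass (limma adjusted p = 0.170), nor did −0.21 ± 0.11 at 120 mg/kg (adjusted p = 0.286). Smaller doses gave values above vehicle, 0.25 at 1 mg/kg (adjusted p = 0.760), 0.21 at 6 mg/kg (adjusted p = 0.662) and 0.11 at 20 mg/kg (adjusted p = 0.807).

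Baat, which conjugates bile acids, read 10.75, 10.63, 10.69, 10.75 and 10.72 at 120 mg/kg of p-toluidine, against 11.10, 10.87, 11.11, 11.09 and 10.75 in vehicle. The treated arrays were tight (SD 0.05), and 4 of 5 lay below the lowest vehicle array. The change was −0.28 ± 0.06 (limma adjusted p = 0.00359). At the other p-toluidine doses it lay between 0.02 and 0.14, with adjusted p from 0.412 to 0.980. With DMPT at 1 to 60 mg/kg the changes lay between −0.02 and 0.08 (adjusted p from 0.670 to 0.973). The 120 mg/kg DMPT arrays read 10.98, 11.42, 11.28, 11.24 and 11.06, at 89.0% of vehicle.

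Counting genes, 3 of 5 (Slc6a6, Slc34a2 and Csad) fell at 60 mg/kg of DMPT against vehicle, where 3.26% of all 31042 probe sets fell and 5.2% passed in either direction. Against 1 mg/kg of DMPT 4 of 5 fell, Cdo1 being added, with 2.95% of all probe sets lower and 4.62% passing either way. In the 120 mg/kg DMPT contrast that chose the genes, 5.53% of probe sets were lower and 9.8% passed either way, from which nothing is read. With p-toluidine Slc6a6 and Slc34a2 fell at 20 mg/kg (2 of 5, against 0.303% of all probe sets, with 0.786% either way) and at 60 mg/kg (2 of 5, against 2.39%). At 120 mg/kg Baat joined them (3 of 5, against 5.07%). Since Slc6a6 and Slc34a2 were chosen for a fall, these counts are no evidence about the 5 as a set. None of the 5 genes rose in any tested contrast.

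None of the 5 genes passed at 1 or 6 mg/kg of either chemical or at 20 mg/kg of DMPT. limma called 0 of 31042 probe sets at 1 mg/kg of DMPT, 1 mg/kg of p-toluidine, 6 mg/kg of p-toluidine and 6 against 1 mg/kg of DMPT, where 1643, 1992, 2557 and 2563 had an unadjusted p under 0.05 (1552.1 are expected where nothing differs). For DMPT against vehicle, 0.168% were called at 6 mg/kg (0.113% lower) and 2.61% at 20 mg/kg (1.05% lower), and 0.709% (0.245% lower) at 20 against 1 mg/kg, with none of the 5 genes among them. Leaving out 1 array at a time moved these counts from 52 to between 18 and 73, from 810 to between 472 and 666, and from 220 to between 90 and 239. In the order of group means, every pair of neighbouring groups overlapped in range, for each probe set and in each chemical.

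**Figure D4:**
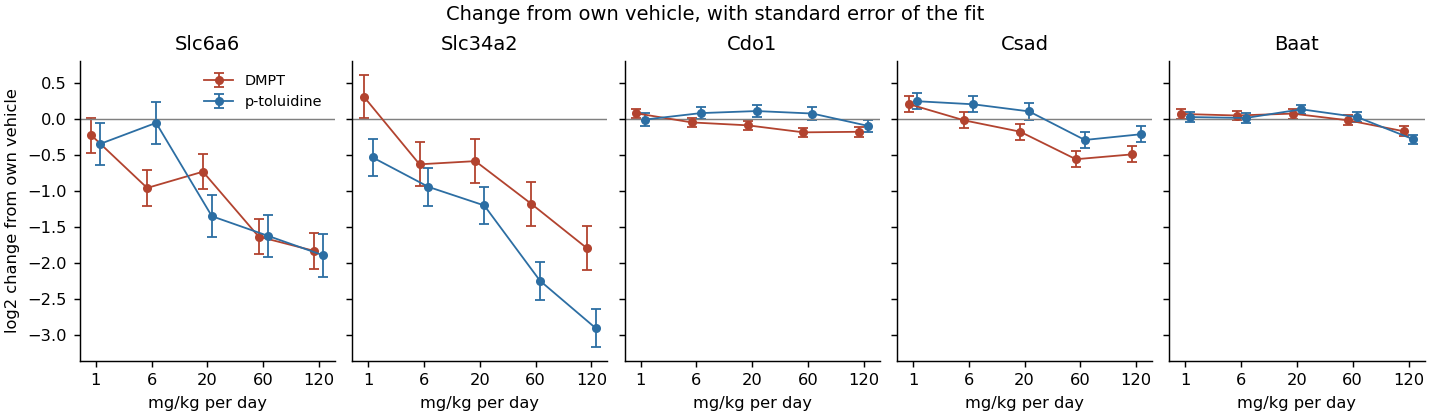
Change in log2 expression from the chemical's own vehicle group (vertical axis) at each daily dose in mg/kg (horizontal axis) for the 5 genes (the brighter probe set of Slc6a6), with DMPT in red and p-toluidine in blue. Points are differences of group means of 5 arrays and bars are 1 SE of the limma fit, and the 2 chemicals are drawn side by side at each dose. The drawn Slc6a6 probe set meets at 60 mg/kg (−1.63 with DMPT and −1.62 with p-toluidine, where the dimmer one, not drawn, gave −1.82 and −1.14), while the point estimates of Slc34a2 are lower with p-toluidine at each dose.

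The compounds differ by the methyl groups on the nitrogen, and their responses (dose minus own vehicle, DMPT minus p-toluidine) were compared at 4 equal doses for the 6 probe sets, 24 comparisons adjusted over all probe sets. None passed, and limma called 0 of 31042 probe sets at any of these doses. The probe sets with an unadjusted p under 0.05 numbered 2160, 1876, 2280 and 1488 from 1 mg/kg upward.

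For Slc6a6 the difference at 60 mg/kg was −0.01 by the brighter probe set (95% interval −0.82 to 0.79, adjusted p = 0.999) and −0.68 by the dimmer one (interval −1.54 to 0.18, adjusted p = 0.999). These intervals are too wide to show that the responses are alike. The dimmer one lay below the array median on 2 of 5 p-toluidine vehicle arrays and on 0 of 5 DMPT ones. The part of this in its difference was not tested. At 6 mg/kg, where DMPT stood at −0.95 and p-toluidine at −0.05, it was −0.90 (interval −1.71 to −0.10; unadjusted p = 0.0286, adjusted p = 0.794). The dimmer probe set differed at that dose by −1.13 (interval −1.98 to −0.27, adjusted p = 0.733). At 20 mg/kg the brighter one differed by 0.62 (interval −0.19 to 1.42, adjusted p = 0.779).

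Slc34a2 fell further with p-toluidine in the point estimates. The difference was 1.07 at 60 mg/kg (interval 0.22 to 1.92; unadjusted p = 0.0142, adjusted p = 0.995). At 1, 6 and 20 mg/kg it was 0.85, 0.31 and 0.62, with adjusted p of 0.717, 0.971 and 0.794. The 120 mg/kg value, given without a test, was 1.11. For Cdo1 at 60 mg/kg the difference was −0.26 (interval −0.47 to −0.05, adjusted p = 0.995). For Csad it was −0.27 (interval −0.59 to 0.06) and for Baat −0.05 (interval −0.22 to 0.13), with adjusted p of 0.999 for each.

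**Figure D5:**
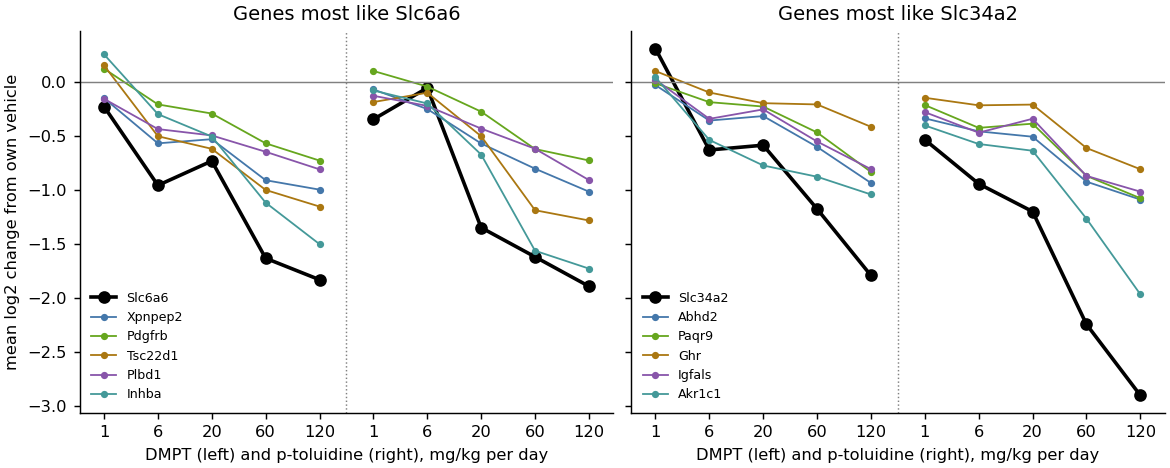
Mean log2 change from own vehicle (vertical axis) at each daily dose in mg/kg of DMPT and then p-toluidine (horizontal axis), for Slc6a6 (left, black) and Slc34a2 (right, black) with the 5 genes whose 10 responses correlated best with each (colours). At 120 mg/kg of p-toluidine Inhba stood at −1.73 beside Slc6a6 at −1.89, and Akr1c1 at −1.97 beside Slc34a2 at −2.90.

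No gene was among the 5 most like both transporters. Over the 10 responses (5 doses of 2 chemicals, 603 genes with an SD of at least 0.25), Slc6a6 was most like Xpnpep2 (r = 0.95), Pdgfrb, a growth factor receptor of stellate cells and other mesenchymal cells (0.94), Tsc22d1 (0.94), Plbd1 (0.93) and Inhba, a subunit of activin (0.93). Slc34a2 was most like Abhd2, Paqr9 and Ghr, the growth hormone receptor (r = 0.98 for each), then Igfals, the acid-labile subunit that carries IGF in blood (0.97), and Akr1c1 (0.96). These correlations are descriptions: responses within a chemical share their vehicle arrays, and the 120 mg/kg DMPT response is among them. By Spearman correlation 0 of these 5 genes stayed among the 5 most like Slc6a6 and 1 of 5 among those most like Slc34a2. Slc34a2 ranked 66 in likeness to Slc6a6 (r = 0.81), and Csad ranked 62 (r = 0.82).

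Ghr changed by −0.20 at 60 mg/kg of DMPT and by −0.81 at 120 mg/kg of p-toluidine, and Igfals by −0.55 and −1.01 in the same contrasts. Pdgfrb changed by −0.56 and −0.72 and Inhba by −1.12 and −1.73. Since Pdgfrb marks mesenchymal cells, the summed level of 7 stellate cell markers (of 8 listed) is set beside Slc6a6. It was lower by 0.34 at 60 mg/kg of p-toluidine, where it ran from 9.40 to 9.75 against 9.78 to 10.00 in vehicle (exact permutation p = 0.00794, adjusted p = 0.0254), and 3 of the 7 fell. At 60 mg/kg of DMPT the difference of −0.34 did not pass (exact permutation p = 0.0317, adjusted p = 0.0781), and 2 of the 7 fell. The 120 mg/kg sum was lower by 0.38 with p-toluidine (exact permutation p = 0.00794, adjusted p = 0.0254) and differed by −0.24 with DMPT (exact permutation p = 0.151, adjusted p = 0.254). Its part in the Slc6a6 result was not tested.

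Of the marker sums, that of hepatocytes differed by −0.05 at 60 and by −0.06 at 120 mg/kg of p-toluidine (exact permutation p = 0.00794, adjusted p = 0.0254 for each). With DMPT its differences were −0.01 at 60 mg/kg (exact permutation p = 0.698) and −0.04 at 120 mg/kg (exact permutation p = 0.0794). Of the 8 hepatocyte genes, 2 fell and 0 rose at 60 mg/kg of each chemical (Hnf4a and Serpina1). At that dose 5.2% of all probe sets passed with DMPT and 4.51% with p-toluidine. Hnf4a changed by −0.35 with DMPT and by −0.45 with p-toluidine, and bright genes weigh most in such a sum. Pericentral hepatocyte markers were lower by 0.18 at 120 mg/kg of DMPT and by 0.19 at 120 mg/kg of p-toluidine (exact permutation p = 0.00794 and adjusted p = 0.0254 for each), and periportal ones by 0.14 at that p-toluidine dose (exact permutation p = 0.0159, adjusted p = 0.0462). The sums of Kupffer cell and sinusoidal endothelium markers did not pass in these 4 contrasts (smallest exact permutation p = 0.0556 and 0.0873). The part of cell makeup in the results on Csad and Baat was not tested.

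Other enzymes of taurine and sulfur amino acid metabolism moved in both directions. Of 22 measured, 3 rose and 2 fell at 60 mg/kg of DMPT, 3 rose and 2 fell at 60 mg/kg of p-toluidine, and 5 rose and 5 fell at 120 mg/kg of p-toluidine, where 5.2%, 4.51% and 10.7% of all probe sets passed. The list's median change was 0.00 at 60 mg/kg of DMPT, as was that of all probe sets. Ethe1, the mitochondrial persulfide dioxygenase, fell by 0.65 at 60 mg/kg of DMPT and by 0.75 at 120 mg/kg of p-toluidine. Cbs, which starts the route from homocysteine to cysteine, fell by 0.51 and 0.41 there. Gclm, the modifier subunit of the glutathione-making ligase that also uses cysteine, rose by 0.47 and 1.18. Fmo1, a flavin monooxygenase that can oxidise hypotaurine to taurine, rose by 0.46 and 0.54. Sqor, sulfide quinone oxidoreductase, changed by 0.32 (adjusted p = 0.20) and rose by 0.87.

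Among 13 measured genes of taurine and osmolyte transport, 1 fell at 60 mg/kg of DMPT, the monocarboxylate transporter gene Slc16a6, which is also known to move taurine. It changed by −0.81 there and by −0.53 at 120 mg/kg of p-toluidine, and passed in both. In all, 1 rose and 2 fell at 120 mg/kg of p-toluidine, and 5.2% and 10.7% of all probe sets passed in these contrasts. Slc6a13, a transporter of GABA and taurine in liver, changed by −0.21 at 60 mg/kg of DMPT (adjusted p = 0.17) and fell by 0.43 at 120 mg/kg of p-toluidine. Lrrc8d, a subunit of the volume-regulated anion channel through which taurine leaves cells, changed by 0.17 (adjusted p = 0.45) and rose by 0.54 in those contrasts. Slc38a2 (0.40, adjusted p = 0.40) and Lrrc8c (−0.24, adjusted p = 0.39) did not pass at 60 mg/kg of DMPT. The list's median change there was −0.12.

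Of 13 measured genes of bile acid conjugation and its control, 2 fell at 60 mg/kg of DMPT and 3 at 120 mg/kg of p-toluidine, with 0 rising in either, where 5.2% and 10.7% of all probe sets passed. Against 1 mg/kg of DMPT 1 rose and 3 fell at 60 mg/kg, and 1 rose and 2 fell at 60 mg/kg of p-toluidine (4.62% and 4.51% of all probe sets passed). Slc27a5, the ligase that makes the bile acid-CoA that Baat uses, fell by 0.82 and by 1.61, more than Baat itself in the point estimates. Hnf4a, also on this list, fell by 0.35 at 60 mg/kg of DMPT (limma adjusted p = 0.0168). It changed by −0.31 at 120 mg/kg of p-toluidine (adjusted p = 0.115), and is named outside the rule on largest changes, after its values were seen. Abcb11, the bile salt export pump, changed by −0.11 with DMPT (adjusted p = 0.68) and fell by 0.66 with p-toluidine. Cyp7a1, the rate-limiting enzyme of bile acid synthesis, changed by 0.38 and 0.56 (adjusted p = 0.62 and 0.43). Cyp8b1, which makes cholic acid, changed by 0.42 (adjusted p = 0.19) and the nuclear repressor gene Nr0b2 by 0.56 (adjusted p = 0.26) at 60 mg/kg of DMPT. The list's median change was 0.09 with DMPT and −0.14 with p-toluidine.

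The kidney members of the family of Slc34a2, Slc34a1 and Slc34a3, did not pass. They changed by −0.08 and 0.01 at 60 mg/kg of DMPT (adjusted p = 0.81 and 0.99) and by −0.05 and 0.06 at 120 mg/kg of p-toluidine (adjusted p = 0.84 and 0.74). These 2 were named for their family, after their values were seen. Of 19 measured phosphate handling genes, 1 rose and 2 fell at 60 mg/kg of DMPT, and 3 rose and 2 fell at 120 mg/kg of p-toluidine, where 5.2% and 10.7% of all probe sets passed. Slc17a1, a phosphate and urate transporter, rose by 0.57 and 0.60. Slc20a1, a widely expressed phosphate importer, changed by 0.43 (adjusted p = 0.055) and rose by 0.65. Fgfr4, the liver's receptor for the bile acid signal FGF15, fell by 0.51 and 0.58. Pth1r, the parathyroid hormone receptor, fell by 0.36 with DMPT and changed by −0.27 with p-toluidine (adjusted p = 0.18). The list's median change was −0.05 in each contrast.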

How the data were processed

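The arrays are 3′ expression arrays of rat liver, per the labels' protocols. The deposited values were taken as log2 expression per probe set, since the submitters' processing notes name RMA (without settings or version). The values run from 0.0507 to 13.9, and some are lower than RMA usually gives, so the log2 scale remains an assumption. Each chemical was fitted alone, because array medians differ. Every fold rests on this scale.

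Of 31099 probe sets, 57 controls were left out and 31042 tested with no filter on brightness. Symbols are those of the platform's annotation, brought up to date by gene ID with RefSeq GRCr8 (20758 of 20826 matched). Probe sets with several symbols (436) or none (9780) were tested and not named. limma 3.58.1 in R 4.3.3 fitted 6 group means to the 30 arrays of a chemical, or 12 to all 60 for differences of responses, with eBayes and Benjamini-Hochberg adjustment over all probe sets. The threshold was an adjusted p of 0.05, and a gene "rose" or "fell" if it met it. The pooled spread includes the 120 mg/kg arrays. The fit was tested on simulated data. The ORIOGEN software of the design text was not used here. Errors are SE of the fit or SD over 5 arrays, whose number limits the precision.

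Marker sums are log2 of summed linear values, compared by two-sided exact permutation tests adjusted over 32 tests. Members and lists were chosen with earlier results of these data known. Named list genes are the 4 with the largest change at 60 mg/kg of DMPT and the 2 at 120 mg/kg of p-toluidine, passed or not, and the genes alike are the 5 with the highest correlation. Replicate numbers do not pair the arrays: the median correlation of deviations from group means over the 75 same-numbered pairs was 0.007 for DMPT and −0.010 for p-toluidine. The alternatives were quantile normalization within a chemical or over all arrays, a brightness filter, the replicate number as a block, a beta-actin covariate, array weights, fits of the compared arrays alone, and arrays left out.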

Additional observations from a re-analysis of the deposited data

Results flagged for a closer look

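Each of the 6 probe sets was checked in each of the 12 groups, which gave 72 sets of 5 values. In 4 of these sets, a single array stood apart from the other 4 by more than 0.71 of the range. Chance gives this in about 1 of 20 sets. The 72 sets share arrays and the 2 Slc6a6 probe sets moved together, so they are not separate checks. Slc6a6 (1374531_at) read 7.83 on DMPT vehicle replicate 2, where the others ran from 6.78 to 7.04. The same probe set read 4.52 on replicate 3 at 6 mg/kg of p-toluidine, where the others ran from 5.29 to 5.53. At 120 mg/kg of p-toluidine replicate 3 was the highest array for Slc6a6 (1368778_at), at 2.35 against 1.47 to 1.68, and for Slc34a2, at 4.70 against 3.86 to 4.08. The calls these arrays enter held without them: without replicate 3 the p-toluidine 120 mg/kg changes stayed past the threshold for both genes, as did the DMPT 60 mg/kg change of Slc6a6 without vehicle replicate 2.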

How the results depend on the processing

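None of the tested changes of the 5 genes reversed as a called value. For 60 mg/kg of DMPT, 120 mg/kg of p-toluidine and the difference at 60 mg/kg, 404 of 413 alternative values stayed on their side of the threshold. Of the rest 7 lost the call and 2 gained it. For the other contrasts 1534 of 1552 stayed on their side, with 11 lost and 7 gained. The causes were not tested. These totals include the differences of responses, never called for these genes, so they do not give the share of calls that held. Direction was not part of the totals, and some changes that were not called switched sign between settings. Slc6a6 (1374531_at) at 6 mg/kg of p-toluidine ran from −0.18 to 0.13, and Baat at 60 mg/kg of DMPT against vehicle from −0.03 to 0.02. The 7 lost calls were of Slc34a2 at 60 mg/kg of DMPT against vehicle (called in 15 of 18 settings) and of Cdo1 against 1 mg/kg (14 of 18). Quantile normalization, within a chemical or over all arrays, brought Cdo1 at 60 mg/kg of DMPT past the threshold at −0.23. Without the arrays of narrow spread, Slc34a2 at 60 mg/kg of DMPT was −1.01 and Cdo1 against 1 mg/kg was −0.26, and Cdo1 was also −0.26, not passed, with only the arrays compared. Leaving out 1 array at a time gave −1.37 to −0.88 for Slc34a2 at 60 mg/kg of DMPT against vehicle and −0.30 to −0.23 for Cdo1 against 1 mg/kg.

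Among all probe sets, the 1433 calls at 60 against 1 mg/kg of DMPT became 2304 with the beta-actin covariate, 820 without the arrays of narrow spread, 797 with only the arrays compared, and 931 (without 1 mg/kg replicate 3) to 1636 when 1 array was left out, with 935 without 60 mg/kg replicate 5. With only the arrays compared, fewer arrays set the spread: 899 in place of 1613 at 60 mg/kg of DMPT, 734 in place of 1400 at 60 mg/kg of p-toluidine, 133 in place of 244 at 20 mg/kg of p-toluidine, and 15 in place of 52 at 6 mg/kg of DMPT. Array weights gave 1627 in place of 810 at 20 mg/kg of DMPT, 557 in place of 220 against 1 mg/kg, and 408 at 20 mg/kg of p-toluidine. The brightness filter gave 394 and 101 at 20 mg/kg of p-toluidine and 6 mg/kg of DMPT, where quantile normalization gave 91 and 93 and the covariate 115. For 20 against 1 mg/kg of DMPT the covariate gave 122 and leaving out the arrays of narrow spread 332. With 1 array left out, the calls at 6 mg/kg of DMPT ran from 18 to 73 (more than 1.5 times fewer without vehicle replicate 1, 3, 4 or 5 or 6 mg/kg replicate 4 or 5), at 20 mg/kg from 472 to 666 (more than 1.5 times fewer without vehicle replicate 3 or 20 mg/kg replicate 2 or 4), against 1 mg/kg from 90 to 239 (more than 1.5 times fewer without 1 mg/kg replicate 2, 3, 4 or 5 or 20 mg/kg replicate 2, 3 or 4), and at 20 mg/kg of p-toluidine from 115 to 247 (more than 1.5 times fewer without vehicle replicate 2 or 4 or 20 mg/kg replicate 1, 2 or 3). For the difference of responses, 0 calls at 60 mg/kg became 0 to 3 with 1 array left out (3 without DMPT 60 mg/kg replicate 1), and 0 at 20 mg/kg became up to 39.

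The replicate block left 1562 calls at 60 mg/kg of DMPT, 1387 against 1 mg/kg, 3207 at 120 mg/kg of p-toluidine and 0 for the difference at 60 mg/kg. With the block the changes at 60 mg/kg of DMPT were −1.63 for Slc6a6 (adjusted p = 0.000118) and −1.17 for Slc34a2 (adjusted p = 0.0273). It changed 1 call of the 6 probe sets, the dimmer Slc6a6 one at 20 mg/kg of p-toluidine (−1.01, adjusted p = 0.0367). Only 4 of 30 DMPT and 2 of 30 p-toluidine arrays correlated best with arrays of their own number. By Spearman correlation 0 of the 5 genes most like Slc6a6 and 1 of the 5 most like Slc34a2 were the same. A mean of all probe sets gives no value for Cdo1, Csad, Baat or Slc34a2, which have 1 probe set each.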
